A study of Mus musculus with 20 samples.

Results

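Transcription factors that set and maintain rod and cone identity were followed across the retinas of 4 groups of mice. The set held 10 genes, taken by symbol as factors of photoreceptor fate and upkeep: Crx, Otx2, Nrl, Nr2e3, Rorb, Thrb, Rxrg, Neurod1, Mef2d and Prdm1. They are 10 of the 18754 genes listed in every table, and all 10 passed the filter on low values in both experiments. WT OIR and Atf6 KO OIR were wild-type and Atf6 knockout mice on a C57BL/6J background, kept in 75% oxygen from postnatal day (P) 7 to P12, returned to room air and collected at P17. This oxygen-induced retinopathy (OIR) protocol first stunts the retinal vessels and then drives abnormal vessel growth. Atf6 encodes a transcription factor of the unfolded protein response, and the knockout was carried in every cell of the animal. PBS and CeapinA7 were wild-type mice at P30, on the same C57BL/6J background and raised without the oxygen protocol. Their eyes received 1 uL of vehicle or of 10 uM Ceapin-A7, an inhibitor of ATF6 activation, into the vitreous and were sampled 24 h later. Each group had 5 libraries of whole retina. Per the study's methods both sexes were used at P17 and at P30, and the sex behind each library is not given. Nothing in the sources ties a library to a litter or says whether 2 retinas of 1 mouse were used, so p-values measure the spread between these libraries. The labels name the vehicle additive as dimethyl sulfide and the control as PBS, while the study's methods name dimethyl sulfoxide and saline. Per the methods the additive was more concentrated in the control than with Ceapin-A7, so drug and additive cannot be told apart. The study has no room-air P17 group and no uninjected P30 group.

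In the developing retina, OTX2 commits precursor cells to the photoreceptor lineage, and CRX, a homeodomain protein of the same family, then switches on the genes of the light response in rods and cones. RORB acts upstream of NRL, the leucine zipper protein that directs a precursor to become a rod, and NRL in turn activates Nr2e3, whose product represses cone genes in rods. THRB, the thyroid hormone receptor, and its partner RXRG act in cones, where they pattern the choice of opsin. PRDM1 holds back bipolar cell genes in new photoreceptors, NEUROD1 supports photoreceptor survival, and MEF2D works with CRX at photoreceptor enhancers. Otx2, Crx, Rorb, Neurod1 and Mef2d are used by other retinal neurons too, and in RNA from whole retina fewer cells of a type and less RNA per cell cannot be told apart.

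The values were fragments mapped to a gene, scaled by transcript length and by the library's mapped fragments (FPKM), so levels can be compared between genes. The retina label was borne out by high rod markers: Gnat1 and Pde6b, which encode rod transducin and phosphodiesterase subunits, summed to between 5682 and 7497 FPKM in the OIR libraries. Lens RNA, in contrast, was uneven, with 11 lens fibre genes summing to 8207 FPKM in CeapinA7 library 1, 4591 in PBS library 1 and 459 in WT OIR library 5, against at most 9.40 in Atf6 KO OIR. In the injection experiment 2 libraries had few photoreceptor and Muller glia transcripts: these rod markers summed to 4462 FPKM in PBS library 4 and 4400 in PBS library 5, against 5908 to 6700 in the other 8. Cone markers summed to 763 and 681 FPKM in the same 2 libraries, against 869 to 1030, and Muller glia markers to 778 and 910, against 1017 to 1416. On the first principal component of all genes in the OIR experiment, 29.7% of the variance, WT OIR library 4 and Atf6 KO OIR library 5 lay on the side of the other genotype. Atf6 transcript did not separate the genotypes (14.9 ± 0.62 FPKM in WT OIR and 15.2 ± 1.51 in Atf6 KO OIR, SD, n = 5), so its level is no check of the labels.

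The promoters of Crx, Thrb and Rorb are shown because these 3 genes had the clearest genotype differences. Each line gives the 250 bases before a transcription start on the coding strand, from RefSeq on GRCm38.p6, and capitals mark GGATTA, the reverse complement of TAATCC, the core bound by CRX and OTX2. They lie at chr7:15879956-15880205 on the minus strand for Crx, at chr14:17660710-17660959 on the plus strand for the first of 2 Thrb starts, and at chr19:19111197-19111446 on the minus strand for the first of 2 Rorb starts.
Crx: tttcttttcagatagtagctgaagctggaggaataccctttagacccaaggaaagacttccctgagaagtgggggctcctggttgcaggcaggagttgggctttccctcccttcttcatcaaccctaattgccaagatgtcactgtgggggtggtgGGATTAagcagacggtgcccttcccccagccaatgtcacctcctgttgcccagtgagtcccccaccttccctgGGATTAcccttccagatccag
Thrb: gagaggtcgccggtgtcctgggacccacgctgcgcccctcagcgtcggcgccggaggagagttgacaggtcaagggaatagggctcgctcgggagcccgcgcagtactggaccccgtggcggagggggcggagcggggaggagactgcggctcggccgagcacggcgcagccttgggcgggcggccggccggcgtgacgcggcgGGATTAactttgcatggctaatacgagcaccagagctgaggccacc
Rorb: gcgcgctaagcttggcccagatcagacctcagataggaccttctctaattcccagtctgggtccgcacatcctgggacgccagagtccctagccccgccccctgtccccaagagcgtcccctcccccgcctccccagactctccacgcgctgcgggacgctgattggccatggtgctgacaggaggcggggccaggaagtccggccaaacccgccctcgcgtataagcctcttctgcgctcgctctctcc
The Crx promoter held the core at 94 and 21 bases before the start (positions -94 and -21), and the first Thrb start at -46. The core, on either strand, was in 6.25% of the 32851 promoter windows searched, and in 3 of the 16 windows of the 10 factors, the third being a start of Otx2 at -211. TGCTGA, the core of the NRL site, was in 16.1% of all windows and 4 of the 16, among them Rorb at -77 in the sequence above. AGGTCA, the nuclear receptor half-site, was in 4607 of the 32851 windows and in 2 of the 16, of which Thrb at -184 is visible above. The second starts of Thrb and Rorb, not shown, held none of these 3 cores. Levels were given per gene, so which start was used in rods, cones or other cells is not known here. These are matches of letters, and no binding was measured.

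In the WT OIR retina the factors spanned more than 2 orders of magnitude. Nrl was the most abundant at 738 ± 55.6 FPKM (SD, n = 5), followed by Crx at 609 ± 27.6 and Nr2e3 at 366 ± 34.5. Neurod1 stood at 301 ± 22.4 FPKM, Otx2 at 143 ± 10.8 and Mef2d at 112 ± 15.3. The other 4 were far lower: Rorb 22.8 ± 4.68, Thrb 13.3 ± 0.80, Prdm1 6.49 ± 0.86 and Rxrg 5.12 ± 0.42 FPKM. No 2 neighbours in this order overlapped between libraries. The rod factors Nrl and Nr2e3, with Crx of rods and cones, were thus the highest of the set. Rorb, which acts upstream of NRL, and the cone pair Thrb and Rxrg were among the 4 lowest.

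**Figure D1:**
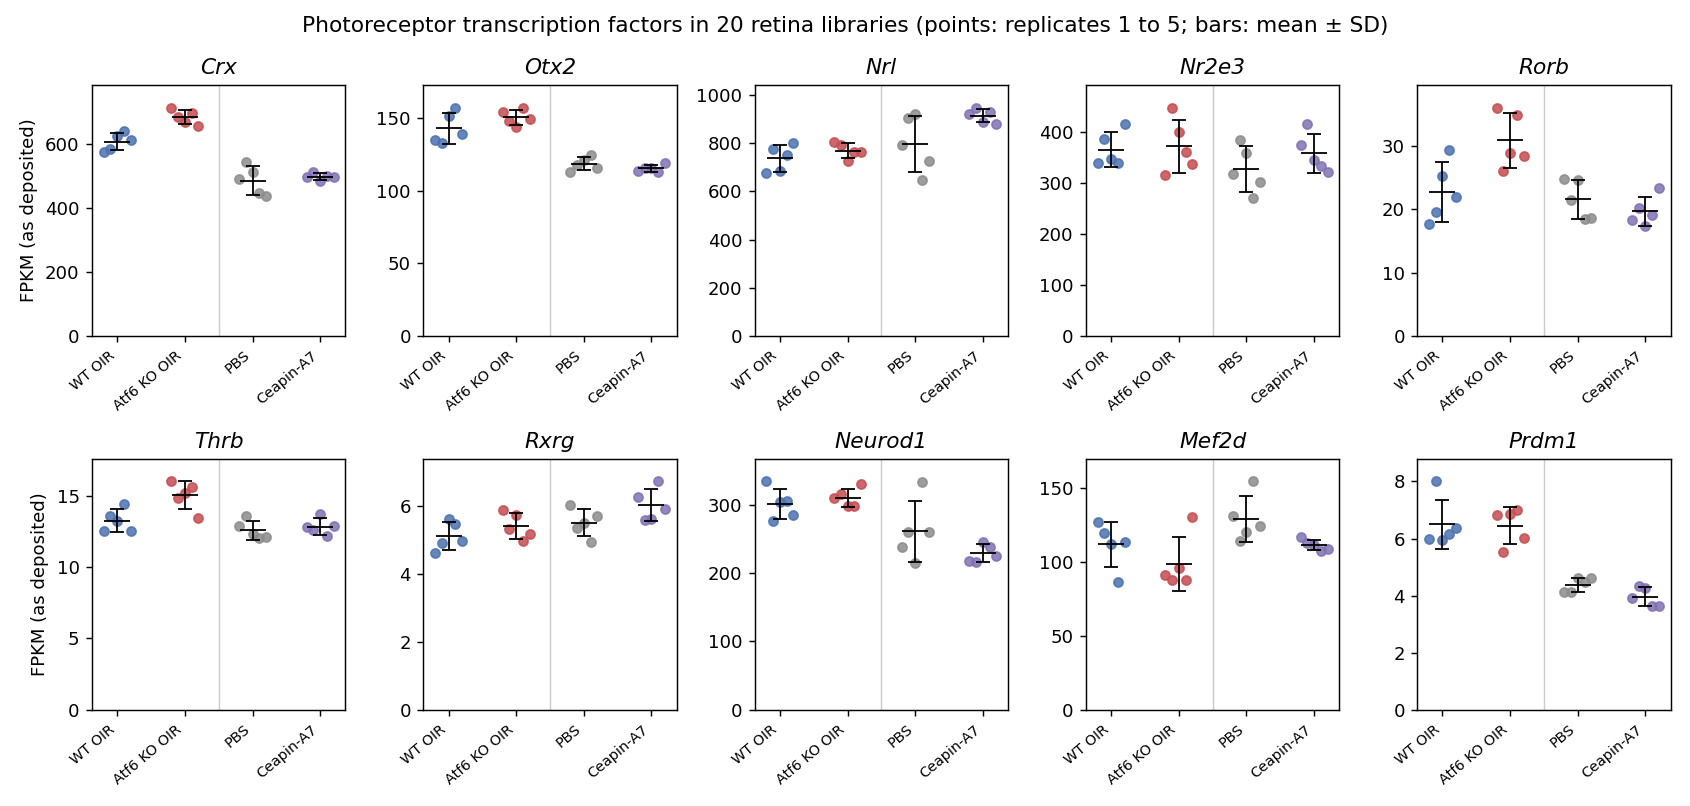
Deposited FPKM (linear axis from 0) of the 10 factors in each library of WT OIR, Atf6 KO OIR, PBS and CeapinA7 (points, 5 per group, in order of replicate number), with the mean ± SD as black bars. All 5 Atf6 KO OIR libraries lie above all 5 WT OIR libraries for Crx, and Otx2, Crx and Prdm1 lie lower in PBS than in WT OIR without overlap.

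The comparison of Atf6 KO OIR with WT OIR asks how loss of Atf6 altered the retina under oxygen-induced retinopathy. Crx, Rorb and Thrb had higher levels in the knockout, by 1.14-fold, 1.39-fold and 1.15-fold, but none of the 10 factors passed an adjusted p of 0.05 (limma, Benjamini-Hochberg over 15704 genes, of which 0.0318% passed). At an unadjusted p of 0.05 or less, the threshold of the study, 3 of the 10 were called and all 3 were higher. Over all genes the same threshold called 12.7%, and 6.94% higher. The split between higher and lower calls over all genes depended on scaling, with 1090 of 2002 higher after median-of-ratios rescaling and 582 of 1906 on the FPKM as deposited. The log2 difference was above 0 for 9 of the 10 factors, against 50.7% of all genes, with a median of 0.088 against 0.0028. That 9 became 7 with quantile normalization (median 0.065) or correction for transcript GC content (0.108). It became 8 on FPKM as deposited (0.070) or rescaled to equal sums (0.064).

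Crx is the homeodomain activator shared by rods and cones. Its level in WT OIR libraries 1 to 5 was 576.66, 584.81, 627.23, 641.37 and 614.77 FPKM. In Atf6 KO OIR it was 714.83, 684.86, 669.75, 697.18 and 657.53 FPKM. Every knockout library exceeded every wild-type library, which 1.52% of all genes did in either direction and 0.395% did with the knockout higher. The log2 difference was 0.19 (SE 0.06), with a limma p of 0.00681 and an adjusted p of 0.358. The exact, 2-sided permutation p was 0.00794, the smallest that arrangements of 5 against 5 libraries can give.

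Rorb encodes the orphan nuclear receptor that acts before Nrl and is also made in horizontal and amacrine cells. WT OIR libraries 1 to 5 held 17.64, 19.53, 25.33, 29.37 and 21.92 FPKM of Rorb. Atf6 KO OIR libraries held 36.09, 26.09, 28.92, 34.99 and 28.49 FPKM. The groups overlapped, since WT OIR library 4 exceeded 3 knockout libraries, and 2 knockout libraries exceeded all wild-type ones. Rorb had a log2 difference of 0.47 (SE 0.13), the largest of the set, with a limma p of 0.00337, an adjusted p of 0.358 and an exact permutation p of 0.0159. Summed markers of amacrine and horizontal cells ranged over 168 to 217 FPKM in WT OIR and 181 to 203 in Atf6 KO OIR, and their part in the Rorb difference was not tested.

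Thrb, the cone receptor for thyroid hormone, was at 12.54, 13.61, 13.26, 14.44 and 12.53 FPKM in WT OIR and at 16.04, 14.89, 15.26, 15.67 and 13.5 FPKM in Atf6 KO OIR. Knockout libraries 1 to 4 exceeded all wild-type libraries and library 5 did not. After rescaling the groups did not overlap, with 12.7 to 13.9 FPKM in wild type and 14.3 to 16.2 in knockout, as was the case for Crx, for 1.8% of all genes in either direction and for 1.11% with the knockout higher. Thrb had a log2 difference of 0.20 (SE 0.06), with a limma p of 0.00477, an adjusted p of 0.358 and an exact permutation p of 0.00794. Summed cone markers moved with it: they were 713 to 748 FPKM in WT OIR except library 4, at 902, which had the highest wild-type Thrb, and 808 to 906 in Atf6 KO OIR except library 5, at 747, which had the lowest knockout Thrb. Their part in the Thrb difference was not tested. Log2 differences over all genes followed transcript GC content (Spearman coefficient -0.479 over 15227 genes, which are not independent), and Rorb and Thrb, at 41.6% and 44.1% GC, are below the median gene. After removal of the GC trend Thrb had 0.12 (limma adjusted p = 0.428) and Rorb 0.37 (adjusted p = 0.363), while Crx, at 49.2% GC, had 0.18 (adjusted p = 0.383).

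The other rod factors passed neither threshold. Nrl ranged from 676.45 to 800.33 FPKM in WT OIR and from 725.22 to 803.95 in Atf6 KO OIR, a log2 difference of 0.08 (SE 0.07), and Nr2e3, its target, had 0.04 (SE 0.10). Otx2, the lineage factor above Crx, had 0.09 (SE 0.06), from 143 ± 10.8 to 151 ± 5.19 FPKM. Rxrg, the partner of THRB, had 0.10 (SE 0.08), Neurod1 0.06 (SE 0.07) and Prdm1 0.01 (SE 0.10). With 2 standard errors, these intervals reached from -0.15 to 0.23 for Nr2e3 and from -0.19 to 0.22 for Prdm1. Changes within these intervals were not excluded by these libraries. The adjusted limma p-values of these 6 lay between 0.464 and 0.966.

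Mef2d, the CRX partner, was the only factor with a lower mean fitted level in the knockout. It was at 127.17, 119.84, 112.03, 86.73 and 113.93 FPKM in WT OIR and at 91.57, 87.86, 95.91, 88.07 and 130.67 FPKM in Atf6 KO OIR. The extreme libraries were the 2 that lay with the other genotype on the first component: WT OIR library 4 was the lowest of all 10 and Atf6 KO OIR library 5 the highest. The log2 difference was -0.17 (SE 0.14, adjusted p = 0.570), and it was -0.29 (adjusted p = 0.137, past the unadjusted threshold) without Atf6 KO OIR library 5. In that fit 4011 of 15718 genes passed the unadjusted threshold. Leaving out a library that lay with the other genotype widens the group difference by construction. In a limma fit that weighted libraries by their estimated spread, 4 factors passed an adjusted p of 0.05: Crx (0.0410), Rorb (0.0251), Thrb (0.0251) and Mef2d (0.0423, log2 difference -0.30). So did 2769 of 15704 genes, against 5 without weights. The weights were estimated from these same data and lower the share of libraries unlike their group, so this fit is no separate support. Retinal pigment epithelium markers also differed, with sums of 17.5 to 100 FPKM in WT OIR and 61.4 to 287 in Atf6 KO OIR, and red blood cell markers ranged from 380 to 2505 and from 407 to 1361. Their part in these differences was not tested.

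**Figure D2:**
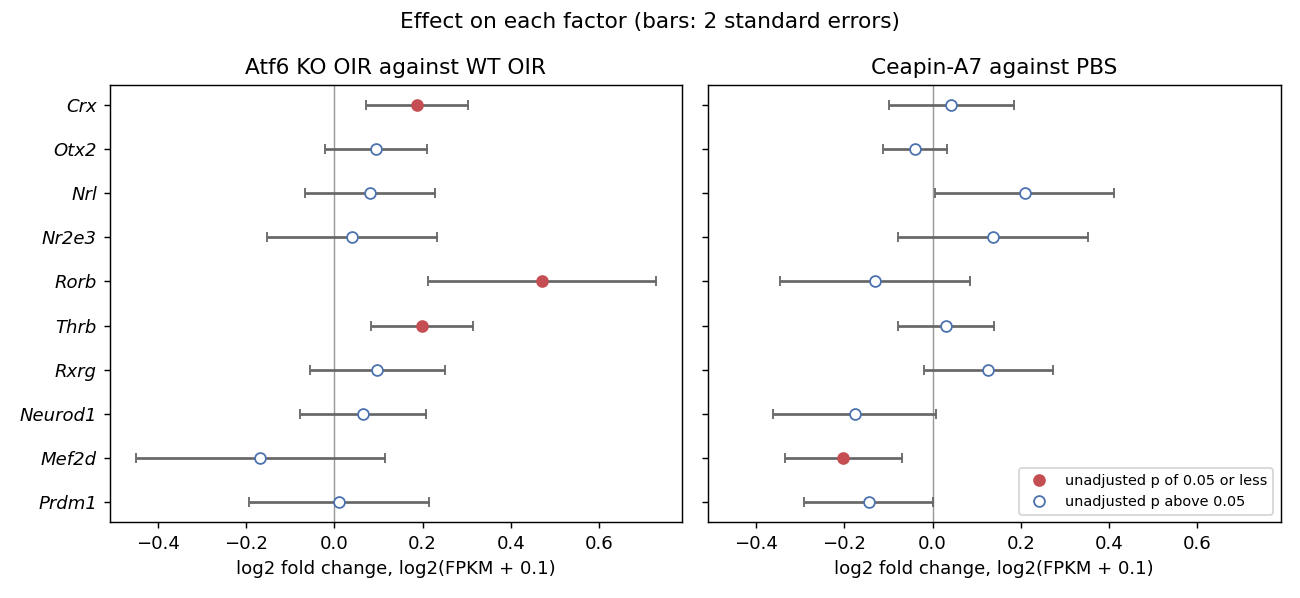
Log2 fold change of each factor on log2(FPKM + 0.1) after rescaling, for Atf6 KO OIR against WT OIR (left) and CeapinA7 against PBS (right), 5 libraries a group, with bars of 2 standard errors from limma. Filled red points have an unadjusted p of 0.05 or less: Crx, Rorb and Thrb on the left, all higher, and Mef2d on the right, lower.

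Ceapin-A7 against PBS asks what a day of ATF6 inhibition did in the P30 retina. No factor passed an adjusted p of 0.05, nor did any of 15408 genes (0.0%, limma). The unadjusted threshold of 0.05 called 1 of the 10 factors, Mef2d, which was lower. It called 1595 genes in all, which is 10.4% of those tested, and 5.31% were lower. The log2 difference was above 0 for 5 of the 10 factors, against 50.3% of all genes, and the median was -0.0046. Without PBS libraries 4 and 5 2 of the 10 were above 0 and the median was -0.05, and with libraries rescaled to equal sums it was -0.04. The libraries of both groups overlapped for each factor, whereas they did not for 1.34% of all genes.

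Mef2d was at 131.01, 114.4, 120.69, 154.63 and 124.5 FPKM in PBS. In CeapinA7 it was at 116.77, 112.87, 111.91, 107.63 and 108.54 FPKM. The treated libraries 2 to 5 were below every PBS library, and library 1 was above PBS library 2 only. The log2 difference was -0.20 (SE 0.07), or 0.87-fold, with a limma p of 0.0105, an adjusted p of 0.472 and an exact permutation p of 0.0159. In the joint fit of all 20 libraries Mef2d lost its call, with a limma p of 0.0884, and Nrl (0.0323) and Neurod1 (0.0446) were called in its place. That fit called 1358 of 15628 genes.

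Nrl had the largest positive log2 difference, 0.21 (SE 0.10, limma adjusted p = 0.490). PBS libraries held 793.61, 903.25, 921.34, 645.98 and 725.55 FPKM, and CeapinA7 libraries 923.54, 947.57, 889.14, 929.38 and 881.67 FPKM. The treated libraries lay close together, and the low values were PBS libraries 4 and 5, the same 2 that had the lowest rod, cone and Muller glia markers. Nr2e3 was also lowest in those 2 libraries (271.14 and 302.93 FPKM) and had a log2 difference of 0.14 (SE 0.11). Neurod1 was highest in PBS library 4, at 333.49 FPKM, against 214.74 to 260.18 in the other PBS libraries, and its log2 difference was -0.18 (SE 0.09). Without PBS libraries 4 and 5, a choice made after seeing the data and because of their low rod markers, the log2 difference was 0.05 for Nrl, -0.00094 for Nr2e3 and -0.07 for Neurod1, while Mef2d had -0.15 and Rorb -0.29. The last 2 passed the unadjusted threshold, as did 769 of 15378 genes in that fit, and the adjusted limma p of both was 0.991.

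**Figure D3:**
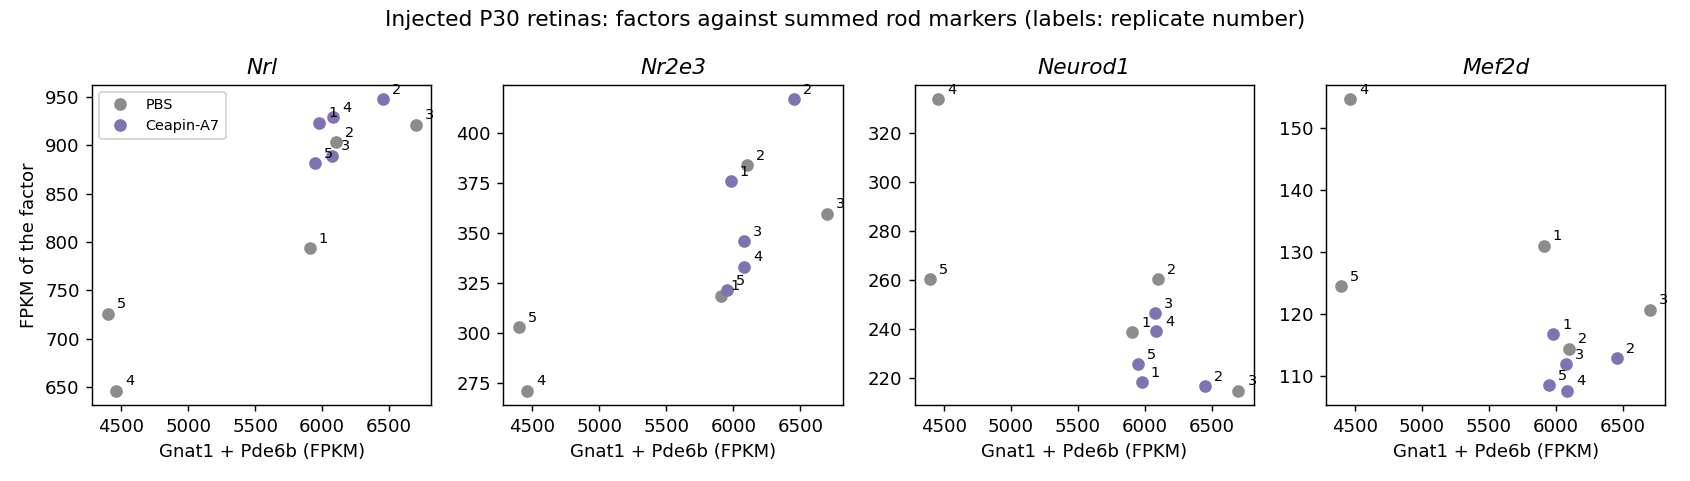
FPKM of Nrl, Nr2e3, Neurod1 and Mef2d against the sum of the rod markers Gnat1 and Pde6b (FPKM), in the 10 injected P30 libraries, labelled by replicate number and coloured by treatment. PBS libraries 4 and 5 stand apart at 4462 and 4400 FPKM of rod markers, with the 2 lowest Nrl and Nr2e3 values.

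No further factor of the injected retinas passed the unadjusted threshold. Crx was 487 ± 44.4 FPKM in PBS and 499 ± 10.6 in CeapinA7, a log2 difference of 0.04 (2 standard errors reaching from -0.10 to 0.18), and Otx2 had -0.04 (SE 0.04). Rorb had -0.13 (SE 0.11), Thrb 0.03 (SE 0.05), Rxrg 0.13 (SE 0.07) and Prdm1 -0.14 (SE 0.07). Their adjusted limma p-values lay between 0.496 and 0.847. For Thrb, 2 standard errors reached from -0.08 to 0.14.

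The difference between both effects was tested in a fit of all 20 libraries. The effect on Rorb was larger in the knockout than with Ceapin-A7 by 0.60 (SE 0.18) on the log2 scale, with a limma p of 0.00344 and an adjusted p of 0.4001. Thrb differed by 0.17 (SE 0.08, limma adjusted p = 0.522), or by 0.096 after removal of the GC trend. These 2 of 10 factors passed the unadjusted threshold, as did 9.19% of all genes, and none passed the adjusted one, as 0.032% of all genes did. Crx differed by 0.15 (SE 0.09) and Otx2 by 0.14 (SE 0.07). The knockout and the inhibitor experiments differ in age, oxygen, injection and duration, which cannot be told apart in this difference.

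Levels at P17 and at P30 are given side by side as a description, since age, the oxygen protocol and the injection cannot be told apart. Crx, Otx2 and Prdm1 were lower in PBS than in WT OIR with no overlap, at 0.80, 0.83 and 0.67 times the WT OIR mean. Prdm1, which acts early in photoreceptor development, was at 5.95 to 8.0 FPKM in WT OIR and 4.11 to 4.6 in PBS. With quantile normalization Crx overlapped, and 2 of the 10 did not. Of all genes 40.4% did not overlap between these groups, and 20.5% were lower in PBS, so the 3 of 10 factors stand near the background. Over all 4 groups, Crx ran from Atf6 KO OIR through WT OIR and CeapinA7 to PBS, and only the last pair overlapped. For Otx2 and Prdm1 both OIR groups lay above both injected groups and the groups within an experiment overlapped, while for the other 7 factors all neighbouring groups overlapped.

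Genes that these factors control or work with were described by 4 lists. In the OIR experiment, 19 of 23 genes of the rod program had higher fitted levels in Atf6 KO OIR, 7 of them at an unadjusted p of 0.05 or less, with a median log2 difference of 0.10. With quantile normalization this median was 0.06. The 3 with the smallest p were Pdc, which encodes phosducin, a binder of transducin (0.29, SE 0.09), Gnb1, a transducin subunit (0.20, SE 0.07), and Pde6b, a subunit of the rod phosphodiesterase (0.21, SE 0.08). Of 13 cone genes 11 were higher and 2 were called, with a median of 0.11, or 0.07 with quantile normalization. These were the cone opsin gene Opn1mw (0.27, SE 0.08) and the cone transducin gene Gnat2 (0.27, SE 0.08), and the next, Slc24a2, had 0.14 (SE 0.10). Among 24 partners and co-regulators 11 were higher and 13 lower, with a median of -0.04. The nuclear receptor gene Rora had 0.26 (SE 0.07), Mef2a 0.16 (SE 0.06) and Sp4 0.20 (SE 0.07), the 3 called. Of 25 transcription factors of other retinal cells 6 were higher and 19 lower, 3 and 2 of them called, with a median of -0.11. Pax6 had 0.15 (SE 0.05), Isl1 0.18 (SE 0.07) and Neurod2 -0.36 (SE 0.15). Over all genes 50.7% were higher and 12.7% called, so the shares called among cone genes and partners were near the background. No gene of the 4 lists passed an adjusted limma p of 0.05.

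With Ceapin-A7, 22 of 23 rod genes had higher fitted levels and 2 were called, with a median log2 difference of 0.16. Without PBS libraries 4 and 5, 9 of the 23 were higher and 14 lower, with a median of -0.02. Those 2 libraries were picked for low Gnat1 and Pde6b, which are in this list. Leaving them out therefore lowers the rod difference by construction, and the change does not show what the direction rested on. With quantile normalization of all libraries the median was 0.05. The 2 rod genes called were the arrestin gene Sag (0.38, SE 0.16) and the guanylate cyclase activator Guca1a (0.26, SE 0.11), followed by Guca1b (0.17, SE 0.08). Of 13 cone genes 11 were higher and 7 called, with a median of 0.19, and without those 2 libraries 12 were higher and the median was 0.08. The cone list was led by cone arrestin Arr3 (0.17, SE 0.05), the transducin subunit Gngt2 (0.38, SE 0.12) and the cone phosphodiesterase Pde6c (0.32, SE 0.12). Partners had a median of -0.03, with 9 higher, 15 lower and 1 called, Casz1 (-0.20, SE 0.09). Ep300 had -0.08 (SE 0.04) and Samd11 0.18 (SE 0.10). Factors of other cells had a median of -0.0089, with 10 higher and 15 lower, and 2 called: Prdm8 (-0.23, SE 0.07) and Sox2 (-0.31, SE 0.11). Lhx4, a further factor of that list, had -0.09 (SE 0.05). Over all genes 50.3% were higher and 10.4% called, so the shares called among rod genes, partners and factors of other cells were at or below the background. None of these genes passed an adjusted p of 0.05.

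**Figure D4:**
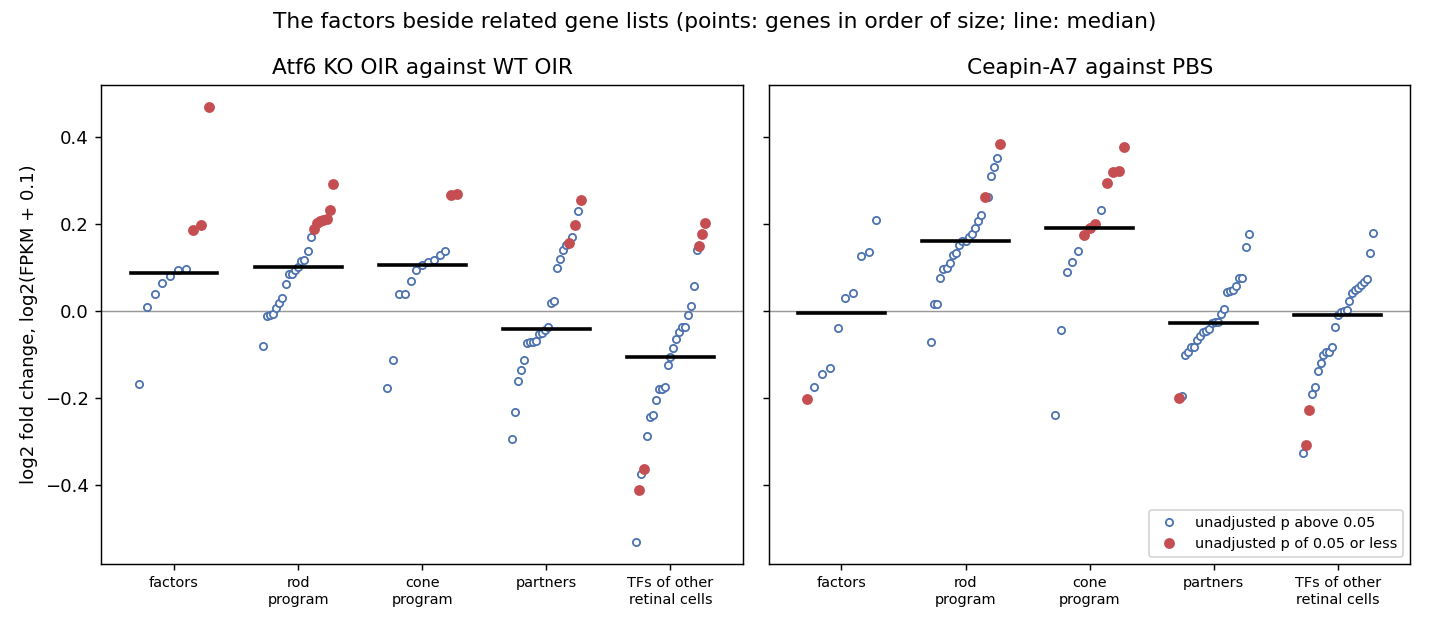
Log2 fold change of single genes (points, in order of size) among the 10 factors and in 4 related lists, on log2(FPKM + 0.1), with the median of each as a black line. The photoreceptor programs have medians of 0.10 and 0.11 in Atf6 KO OIR against WT OIR and of 0.16 and 0.19 in CeapinA7 against PBS. The rod median of 0.16 is -0.02 without PBS libraries 4 and 5, which were picked for low rod markers. The medians of partners and of factors of other cells are below 0 in both comparisons.

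Within groups, some factors varied together from library to library. Over the 20 libraries, as deviations from the group means, Crx and Nrl had a Pearson r of 0.81 (Spearman coefficient 0.69), and Nrl and Nr2e3 0.67 (Spearman 0.57). Rorb went with Otx2 (0.65, Spearman 0.63) and with Crx (0.64, Spearman 0.77). Nrl and Neurod1 had -0.61 (Spearman -0.35). Libraries share scaling, depth and cell make-up, so these values describe the libraries and carry no test. PBS libraries 4 and 5 had the lowest PBS values of Crx, Nrl and Nr2e3, and PBS library 4 the highest of Neurod1. The values of these pairs were not recomputed without them. Among 12432 genes, those most like Crx were Pde6g, a subunit of the rod phosphodiesterase (r = 0.919), Rnaseh2b (0.915) and Gucd1 (0.906). For Nrl they were Susd3 (0.960), Ext1 (0.941) and Nxnl1 (0.936), which encodes a rod-derived factor for cone survival. For Rorb they were Wdr31 (0.887), Gulo (0.835) and Edem2 (0.827), and for Thrb Zfp748 (0.906), Sec22b (0.883) and Pigc (0.872). Without the 2 libraries farthest in the factor's own level these r values lay between 0.750 and 0.937.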

How the data were processed

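Whole-retina RNA from 20 mouse libraries was sequenced as stranded, paired-end mRNA libraries. Per the labels and the study's methods, the authors aligned reads to GRCm39 with HISAT2 2.0.4, quantified genes with RSEM 1.2.18 and deposited FPKM to 2 decimals in a table for each group. DESeq2 1.4.5 is listed in the submitters' processing notes. FPKM keeps no read counts, so no counting interval is given.

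FPKM was divided by median-of-ratios factors within each experiment. Genes with a mean FPKM above 0.1 were fitted on log2(FPKM + 0.1) with limma 3.58.1 (R 4.3.3, trended empirical Bayes), each experiment apart, and p-values were adjusted by Benjamini-Hochberg over all genes. Fold changes on this scale understate changes of low genes. The 20-library fit gave the difference of effects. Exact, 2-sided permutation tests used the rescaled log2 values. The script was tested on simulated data. Python 3.11.15, pandas 2.3.3, scipy 1.17.1 and matplotlib 3.10.9 were used otherwise.

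Replicate numbers did not pair libraries: same-numbered libraries correlated with r from -0.258 to 0.210 (OIR) and from -0.217 to 0.310 (injection). All 10 members are named, with the 3 genes of smallest p in each list and experiment, and the 3 genes most like Crx, Nrl, Rorb and Thrb among genes with a mean of at least 1 FPKM per group. The members and lists were chosen with earlier results of these data known. Of 11 marker lists, the sums not given in the results were, over all 20 libraries: cone 681 to 1030 FPKM, bipolar 272 to 349, ganglion 382 to 668, Muller glia 778 to 1416, endothelial 48.2 to 133 and microglia and macrophage 15.5 to 57.3. GC content came from GENCODE M21 transcripts (GRCm38), matched by symbol for 97.0% and 97.1% of the genes tested, and promoters from RefSeq, where all 10 members matched. A gene of the rod program and rod marker lists is not reported here and was left out of both.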

Additional observations from a re-analysis of the deposited data

Results flagged for a closer look

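Among 40 sets of 5 libraries (10 factors in 4 groups), 2 had a library far from the other 4. By chance about 1 in 20 sets would. Mef2d in Atf6 KO OIR library 5 was at 130.67 FPKM, against 87.86 to 95.91 in the other 4. Prdm1 in WT OIR library 2 was at 8.0 FPKM, against 5.95 to 6.36 in the other 4.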

How the results depend on the processing

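Under 22 alternatives for the OIR comparison (pseudocount, filter, scaling, library weights, replicate block, a joint fit, GC trend, each library left out) and 23 for the injection, Crx, Rorb and Thrb stayed higher and Mef2d lower in Atf6 KO OIR in all 22, and Mef2d stayed lower in CeapinA7 in all 23, though it lost its unadjusted call in the joint fit. With library weights, estimated from the same data, 4 factors passed an adjusted limma p of 0.05 in the OIR comparison, in place of 0. In the difference of effects 1 factor did. Of all genes 2769 of 15704 and 744 of 15628 did. Another OIR fit, without the 2 libraries on the other genotype's side of the first component, was tried after seeing the data; it also called more factors, and it is not used, because leaving out libraries picked that way widens the group difference by construction. At an unadjusted p of 0.05 or less, the injection called 2 factors on FPKM as deposited, rescaled to equal sums, in the joint fit and without PBS libraries 4 and 5. Those fits called 1539, 1699, 1358 and 769 genes. With a library left out the injection called 1 to 3 factors. The difference of effects called 1 factor on FPKM as deposited (and 1325 of 15628 genes), with the GC trend removed (1215 of 15159) and with the replicate block (1330 of 15628). It called 4 with equal sums (1339 of 15628 genes) or library weights (3804 of 15628). With a library left out it called 1 to 4, beside 1006 to 2616 genes. The replicate block left the counts of 3 (OIR) and 1 (injection) as they were. Genes called over the whole OIR table, 2002 with all libraries, ranged from 1092 (without Atf6 KO OIR library 4) through 1301 (without WT OIR library 1) to 3762 (without WT OIR library 4) and 4011 (without Atf6 KO OIR library 5). In the injection, 1595 became 956 without PBS library 4 and 2529 without PBS library 2. Small effects changed sign: in the OIR comparison Prdm1 (-0.0070 as deposited, -0.013 at equal sums, -0.040 without the GC trend, -0.023 to 0.089 with a library left out), Nr2e3 (-0.022 with quantile normalization, -0.020 to 0.096 with a library left out) and Neurod1 (-0.00071 with quantile normalization, -0.017 without the GC trend). In the injection Thrb was at -0.0078 with equal sums, and Crx at -0.012 with quantile normalization and from -0.0022 to 0.090 with a library left out. Without PBS libraries 4 and 5 the values were -0.064 for Crx, -0.00094 for Nr2e3 and -0.025 for Thrb. In the difference of effects Rxrg was at 0.0095 with library weights, 0.034 without the GC trend and -0.060 to 0.019 with a library left out, and Mef2d at -0.097 with library weights and -0.080 to 0.092 with a library left out. The partners' median in the injection was -0.066 with equal sums. Without PBS libraries 4 and 5, a fit added after seeing the data, the rod median there was -0.020 and the cone median 0.083. Those 2 libraries were picked for low rod markers, so leaving them out lowers the rod median by construction. The cause was not tested.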
